A study of Mus musculus with 6 samples.

Results

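Serpina1a, Serpina1b, Serpina1c, Serpina1d and Serpina1e, their relatives Serpina6, Serpina10, Serpina11 and Serpina12, and the pseudogene Gm8893 were followed in aged mouse liver. They are 10 of the 32212 rows of the deposited gene counts, picked by symbol because they lie together on chromosome 12 and because some of them were known, from these same libraries, to differ between the genotypes. Their differences between genotypes are therefore descriptions and carry no test. The study compared livers of WT mice with livers of CgA-KO mice, which lack chromogranin A, the prohormone encoded by Chga. All 6 animals were male, 2 yr old, on a C57BL/6 background and fed normal chow, and each gave 1 library of poly(A)-selected liver RNA, 3 per genotype. The embryonic stem cell line behind the Chga deletion and the number of backcrosses are not given in the sources used here. Whether DNA around Chga came from another strain was not tested.

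Serpins are a family of proteins that mostly block serine proteases by offering them a bait, the reactive-centre loop, which the protease cuts and is trapped by. Alpha-1 antitrypsin, the product of SERPINA1, is made by hepatocytes, secreted into blood in large amounts and protects tissue from neutrophil elastase. Humans have a single gene for it, whereas mice carry several near-identical copies whose number varies between inbred strains and whose loops differ in sequence. The neighbours have other tasks. Serpina6 encodes corticosteroid-binding globulin, which carries glucocorticoids in plasma and inhibits no protease. Serpina10 encodes protein Z-dependent protease inhibitor, which acts on coagulation factors X and XI. Serpina12 encodes vaspin, an inhibitor of kallikrein 7 that was first described in fat tissue. The role of Serpina11 is little known.

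All 10 genes lie on the minus strand of chromosome 12 of GRCm38, in the GENCODE annotation, within 429.658 kb that also hold 14 other annotated genes. The nearest of them to Chga, Serpina10, starts 1050 kb beyond the end of Chga, and the farthest, Serpina12, ends 1479 kb beyond it. Serpina10 runs from 103614786 to 103631444, Serpina6 from 103646630 to 103657212, Serpina1d from 103763594 to 103773592, Gm8893 from 103817856 to 103822243 and Serpina1a from 103853589 to 103863562. Serpina1c runs from 103894926 to 103904887, Serpina1e from 103946931 to 103958975, Serpina11 from 103980243 to 103989957 and Serpina12 from 104028769 to 104044443. Serpina1b is annotated from 103728156 to 103830373, because an annotated transcript of it starts far upstream, so that Serpina1d and Gm8893 lie inside its span on the same strand. The transcript used for it here spans 103728156 to 103738158. The antisense transcript B430119L08Rik overlaps Serpina1c, and Gm28577 overlaps Serpina11; neither was analysed here.

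The Serpina1 copies are so alike that reads can be shared between them, and the sequences show how far. The coding part of each of the 5 paralogs, stop codon included, and the 4 exons of Gm8893 are all 1242 bases long and could be compared base by base, counting from the A of the start codon. The 6 sequences were not all the same at 92 positions, or 7.41%. Gm8893 was closest to Serpina1a, with 15 differences and 98.8% identity, while Serpina1a and Serpina1c had 19 differences. Serpina1e had between 43 and 46 differences from each of the others, and Serpina1d between 41 and 46. Private bases numbered 16 in Serpina1e, 15 each in Serpina1b and Serpina1d, 6 each in Serpina1c and Gm8893 and 3 in Serpina1a. Gm8893 starts with an ATG but has a stop codon at codon 93 of 414, whereas the 5 paralogs are open to their last codon. Among all stretches of 60 bases, bases 1101 to 1160 of the coding sequence held the most variable positions, 18 of them, or 30%. They lie in the last coding exon and encode part of the reactive-centre loop. They are printed because they are where the paralogs are easiest to tell apart, with capitals at the positions where the 6 sequences are not all the same.
Serpina1a: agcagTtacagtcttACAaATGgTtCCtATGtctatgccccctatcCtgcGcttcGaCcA
Serpina1b: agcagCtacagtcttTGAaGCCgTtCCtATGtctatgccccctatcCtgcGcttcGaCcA
Serpina1c: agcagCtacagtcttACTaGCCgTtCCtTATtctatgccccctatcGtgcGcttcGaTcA
Serpina1d: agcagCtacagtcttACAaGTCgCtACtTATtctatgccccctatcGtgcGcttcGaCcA
Serpina1e: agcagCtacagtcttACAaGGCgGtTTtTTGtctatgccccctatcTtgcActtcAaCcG
Gm8893: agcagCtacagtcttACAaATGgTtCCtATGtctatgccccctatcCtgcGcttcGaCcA
In GRCm38 these stretches are chr12:103853757-103853816 (Serpina1a), chr12:103728324-103728383 (Serpina1b), chr12:103895094-103895153 (Serpina1c), chr12:103763762-103763821 (Serpina1d), chr12:103947100-103947159 (Serpina1e) and chr12:103817938-103817997 (Gm8893), each read on the minus strand from the GENCODE transcripts. Here too Gm8893 had nearly the letters of Serpina1a, and Serpina1b, Serpina1c, Serpina1d and Serpina1e each had other letters.

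Salmon, the tool that made the counts, uses short words of sequence, by default 31 bases, to find transcripts that a read may come from. The shares of words given here describe the sequences. How many reads were in fact split was not measured. A read, or its mate, can differ between genes without holding a word unique to 1 gene. Of the 31-base words of the Serpina1a transcript, 10% occurred in no other gene of the annotation. The share was 14.2% in Serpina1c, 24.8% in Gm8893, 35.3% in Serpina1d, 35.6% in Serpina1b and 43.6% in Serpina1e. Serpina1e was thus the paralog with the most sequence of its own, and Serpina1a the one with the least. For stretches as long as 1 read, 100 bases, 18.2% of those in Serpina1e held no word unique to the gene, against 26.6% in Serpina1b, 31.9% in Gm8893, 38.5% in Serpina1d, 65.7% in Serpina1a and 71.3% in Serpina1c. Serpina1a and Serpina1c shared 77.4% of the words of Serpina1a. Gm8893 shared 66.3% of its words with Serpina1a and 39.4% with Serpina1e. Serpina12, Serpina6, Serpina10 and Serpina11 shared 0 words with any other of the 10 genes. For Serpina12 and Serpina6 every word was unique in the annotation, and for Serpina10 97.5% were. Serpina11 shared 45.2% of its words with Gm28577, and the 5 paralogs and Gm8893 shared some with B430119L08Rik. Neither Gm28577 nor B430119L08Rik has a row in the deposited counts. These shares hold for the GENCODE M21 annotation, and whether the counts were made with it is not given in the sources used here.

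**Figure D1:**
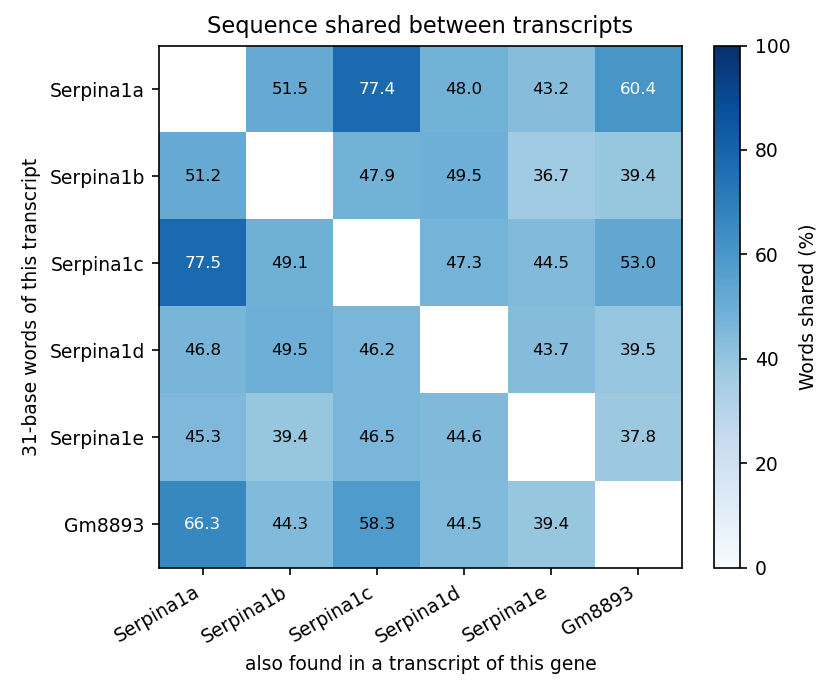
Each cell gives the percentage of the 31-base words of 1 transcript (row) that also occur in a transcript of another gene (column), for Serpina1a to Serpina1e and Gm8893. The darkest cells join Serpina1a with Serpina1c (77.4%) and Gm8893 with Serpina1a (66.3%), and those in the row of Serpina1e reach at most 46.5%.

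The promoters of the paralogs were also close to identical. RefSeq gave a promoter, 250 bases before to 50 bases after the start site on GRCm38.p6, for 7 of the 10 genes. Between the 5 paralogs, the aligned parts were from 91.7% to 98.4% identical. Serpina1a and Serpina1e, whose levels differed least and most between the genotypes among the paralogs, were 95.9% identical over 243 aligned bases. Both promoters are printed so that this likeness can be seen, with capitals at the letters GTTAAT, part of the site that the hepatocyte factor HNF1 binds.
Serpina1a: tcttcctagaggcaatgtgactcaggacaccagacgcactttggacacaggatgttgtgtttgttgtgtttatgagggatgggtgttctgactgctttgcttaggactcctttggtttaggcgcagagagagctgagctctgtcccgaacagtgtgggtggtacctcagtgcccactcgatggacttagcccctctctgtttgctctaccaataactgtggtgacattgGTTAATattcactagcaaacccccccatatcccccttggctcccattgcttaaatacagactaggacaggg
Serpina1e: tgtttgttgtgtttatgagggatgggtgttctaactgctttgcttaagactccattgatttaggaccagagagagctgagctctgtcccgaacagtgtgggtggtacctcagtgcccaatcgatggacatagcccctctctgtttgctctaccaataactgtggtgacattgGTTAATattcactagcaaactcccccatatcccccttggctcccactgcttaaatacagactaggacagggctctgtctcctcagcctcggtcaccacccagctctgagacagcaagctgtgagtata
They are chr12:103863570-103863869 and chr12:103956848-103957147, minus strand. GTTAAT, searched on both strands, occurred once in each of the 5 paralog promoters, on the strand of the gene, and in neither of the Serpina11 and Serpina12 promoters. Of all 32851 promoters of 300 bases, 7.10% held it. A longer form of the HNF1 site, which contains these letters, occurred in 0 of the 7 promoters, against 0.399% of all. TTCNNNGAA, the form of site that STAT factors bind, occurred in the Serpina11 promoter and in none of the other 6, against 8.30% of all promoters.

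The libraries held between 10558616 counts (WT replicate 1) and 31087453 counts (WT replicate 2). Levels are given as CPM, counts scaled to a common library size with edgeR's TMM factors, and errors are SDs over 3 livers. A count of 3, the lowest taken as seen, equals 0.0951 to 0.269 CPM, for counting error only. Of the rows of the table, 13867 had enough counts to be tested, all 10 genes described here among them. Chga itself had 0 counts in all 6 livers and could not check the genotype labels. The tissue label could be checked: all 14 hepatocyte markers in the table were well detected, with Alb (albumin) at 51653 ± 14044 CPM in WT livers and 44039 ± 12691 in those of CgA-KO mice. edgeR called 0 of the 14, with 1 at an unadjusted p-value below 0.05, and DESeq2 called 1, lower. In bulk liver, fewer hepatocytes and less RNA per hepatocyte cannot be told apart.

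Of the 10 genes, 2 were called lower in CgA-KO (Serpina1e and Serpina12) and 1 was called higher (Gm8893) by edgeR's quasi-likelihood test at an adjusted p-value under 0.05. Over all genes tested, 3.84% were called lower and 8.6% higher. The genotypes did not overlap in 6 of the 10 genes, 5 lower (Serpina1c, Serpina1d, Serpina1e, Serpina12 and Serpina10) and 1 higher (Gm8893), where over all genes tested 14.6% were lower and 19% higher without overlap and 33.6% in either direction. The median log2 ratio (log2 fold change, CgA-KO minus WT) was -0.72 over the 10 and -0.01 over all genes. These genes were picked with this contrast known, and nothing is read from the counts.

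**Figure D2:**
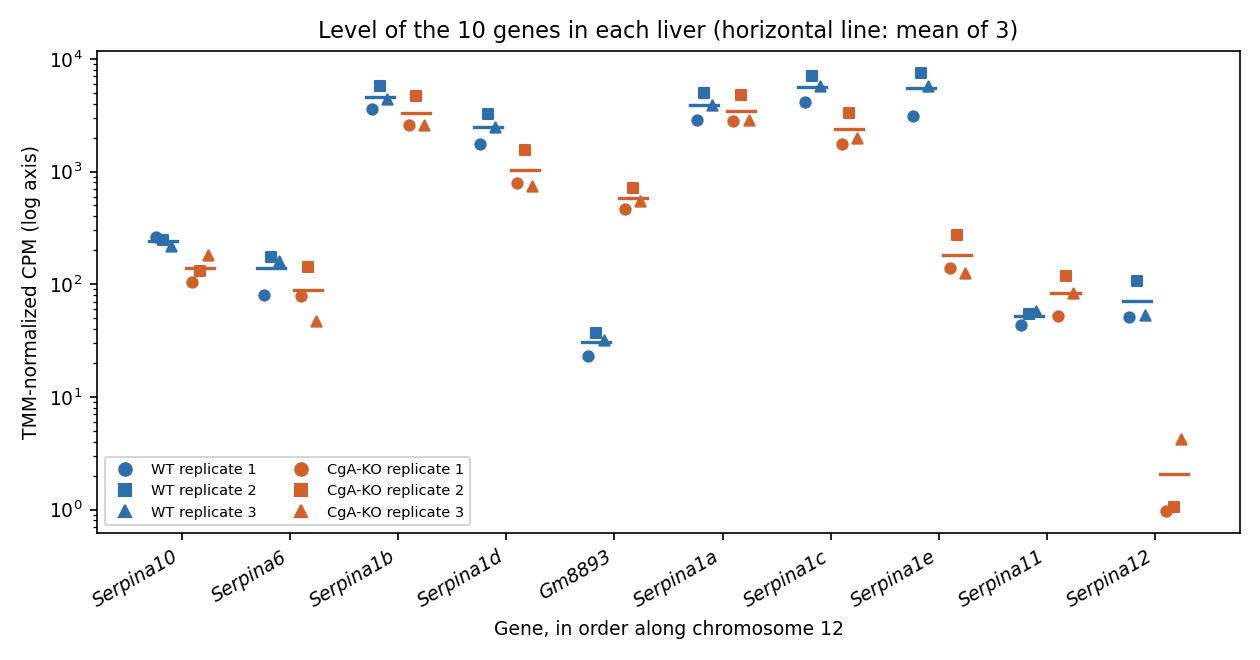
TMM-normalized CPM on a log axis for the 10 genes, in order along chromosome 12, with 1 point per liver (blue WT, orange CgA-KO, marker shape for the replicate number) and a line at the mean of 3. Serpina1e and Serpina12 sit far lower and Gm8893 far higher in CgA-KO, while Serpina1a overlaps between the genotypes.

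Serpina1e was among the most abundant alpha-1 antitrypsin genes in WT livers and the scarcest in CgA-KO livers. WT replicates 1, 2 and 3 had 3087, 7538 and 5760 CPM of it, and CgA-KO replicates 1, 2 and 3 had 141, 275 and 125 CPM. Every CgA-KO liver lay under every WT liver, and WT replicate 1 was the lowest of its genotype. The means were 5462 ± 2241 and 180 ± 82.7 CPM, so that CgA-KO livers had 0.0330 of the WT level, a log2 ratio of -4.92 (SE, standard error of the log2 ratio, 0.499). Between 2786 and 8683 counts remained in each CgA-KO library. Leaving out 1 library at a time kept the log2 ratio between -5.32 and -4.62.

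The pseudogene Gm8893 had the opposite pattern. It held 22.8, 37.2 and 31.8 CPM in WT livers, against 463, 721 and 549 CPM in those of CgA-KO mice. The lowest CgA-KO liver was far above the highest WT liver, and each genotype stayed in a narrow range. The means, 30.6 ± 7.24 and 578 ± 131 CPM, differed 18.9-fold, with a log2 ratio of 4.24 (SE 0.302). The counts behind them were 255, 874 and 750 in WT and 9982, 22727 and 12246 in CgA-KO. The other annotated pseudogenes between the outermost of these genes had 0 to 2 counts per library where they were measured, in 4 rows.

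Serpina1c and Serpina1d were intermediate and much alike in their difference. Serpina1c was at 4126, 7068 and 5698 CPM in WT livers, against 1759, 3330 and 1998 CPM in those of CgA-KO mice. Serpina1d was at 1762, 3245 and 2499 CPM in WT livers, against 790, 1549 and 751 CPM in those of CgA-KO mice. In neither did the genotypes overlap, but CgA-KO replicate 2 came close to WT replicate 1 in both. Mean levels in CgA-KO were 0.420 of WT for Serpina1c (log2 ratio -1.25, SE 0.355) and 0.412 of WT for Serpina1d (-1.28, SE 0.374). The main edgeR fit called neither of them. With all 6 libraries, edgeR called both with a replicate block (-1.28 and -1.32), and Serpina1d alone with a filter of at least 1 count in total. It also called both without WT replicate 1 (-1.40 and -1.44) and both without CgA-KO replicate 2 (-1.54 and -1.66). DESeq2 and limma-voom called both with all libraries.

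Serpina1a and Serpina1b overlapped between the genotypes. Serpina1a was at 2883, 4964 and 3928 CPM in WT livers, against 2782, 4733 and 2872 CPM in those of CgA-KO mice, nearly the same range. Its log2 ratio was -0.18 (SE 0.337), and the sign turned with the scaling, to 0.13 with library size alone, and without WT replicate 2, to 0.02. Serpina1b was at 3561, 5759 and 4361 CPM in WT livers, against 2572, 4710 and 2567 CPM in those of CgA-KO mice. Its log2 ratio was -0.47 (SE 0.348). With these errors, a moderate difference in either gene was not detectable.

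Levels between genes were compared per kilobase of transcript. In WT livers Serpina1e had 4218 ± 1730 CPM per kb and Serpina1c 4137 ± 1081, followed by Serpina1b (3272 ± 798), Serpina1a (2886 ± 765) and Serpina1d (1795 ± 532). Livers moved together in these genes: in each of the 3 WT libraries Serpina1c was above Serpina1b, Serpina1b above Serpina1a and Serpina1a above Serpina1d. Serpina1e was below Serpina1c in WT replicate 1 and above it in the other 2, so the order of these 2 was not fixed. In CgA-KO livers Serpina1a (2546 ± 810 CPM per kb) and Serpina1b (2355 ± 886) came first, then Serpina1c (1736 ± 622), Serpina1d (739 ± 323), Gm8893 (465 ± 106) and Serpina1e (139 ± 63.9). This order was the same in all 3 CgA-KO libraries. The pseudogene thus ranked above Serpina1e in CgA-KO livers, while in WT livers it stood near the bottom, at 24.6 ± 5.83 CPM per kb. The other members, the Serpina genes outside the Serpina1 group, ranged from 0.563 CPM per kb (Serpina12) to 58.2 CPM per kb (Serpina11) in CgA-KO livers and from 19.0 (Serpina12) to 86.7 CPM per kb (Serpina6) in WT livers.

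The sum of the 5 paralogs does not depend on how reads were split among them. The counts of Serpina1a to Serpina1e together came to 15419, 28573 and 22248 CPM in WT livers and to 8044, 14597 and 8313 in those of CgA-KO mice. All 3 CgA-KO livers were below the WT livers, but CgA-KO replicate 2 was only just below WT replicate 1. The means were 22080 ± 6579 and 10318 ± 3708 CPM, a ratio of 0.467. Fitted as 1 row, the sum had a log2 ratio of -1.10, and of -1.02 when Gm8893 was added to it. With each library left out in turn it ran from -1.39 to -0.87. Of the loss in the mean summed level, 11762 CPM, Serpina1e made up 44.9%, Serpina1c 27.8%, Serpina1d 12.5%, Serpina1b 10.9% and Serpina1a 3.93%. The gain in Gm8893 was 547 CPM, against a loss of 5281 CPM in Serpina1e. The 5 paralogs held 1.63% to 2.16% of all counts in WT and 0.900% to 1.61% in CgA-KO libraries. Alb, like the sum, was highest in replicate 2 of both genotypes. Per 1000 Alb counts, the paralogs had 404, 432 and 439 counts in WT and 177, 261 and 271 in CgA-KO livers, without overlap.

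**Figure D3:**
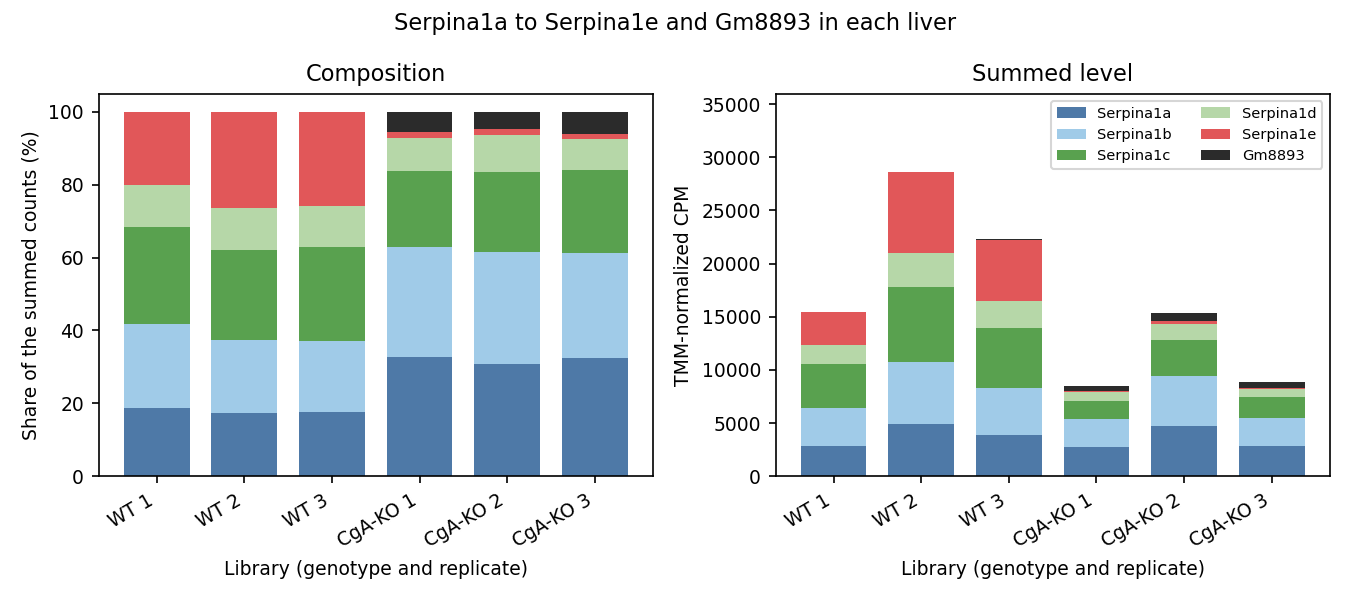
Stacked bars for the 6 livers give the share of each gene in the summed counts of Serpina1a to Serpina1e and Gm8893 (left, percent) and the same genes as TMM-normalized CPM (right). Serpina1e (red) shrinks from 20.0 to 26.3% of the sum in WT to 1.41 to 1.80% in CgA-KO, Gm8893 (black) becomes visible in CgA-KO only, and the whole stack is shorter.

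Within the group, the mix was far steadier than the level. Serpina1e made up 20.0%, 26.4% and 25.9% of the 5 paralogs in WT replicates 1, 2 and 3, and 1.75% and 1.89% in CgA-KO replicates 1 and 2, with replicate 3 lower still. The counting error on these shares was small, with exact 95% binomial intervals of 19.8% to 20.2% for WT replicate 1 and 1.45% to 1.56% for CgA-KO replicate 3. Serpina1a held 17.9% ± 0.697 of the sum in WT and 33.9% ± 1.24 in CgA-KO livers, and Serpina1b 21.0% ± 1.88 and 31.7% ± 0.730. Serpina1c held 25.7% ± 1.02 and 22.9% ± 1.09, and Serpina1d 11.3% ± 0.0968 and 9.82% ± 0.792.

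Taking Serpina1a as the yardstick in each library gave the same picture with little spread. Gm8893 had 0.00792, 0.00749 and 0.00809 counts per count of Serpina1a in WT, and 0.167, 0.152 and 0.191 in CgA-KO livers. This ratio had a coefficient of variation of 3.93% in WT and 11.6% in CgA-KO, against 23.7% and 22.7% for the CPM of Gm8893 itself. Serpina1c had 1.43, 1.42 and 1.45 counts per count of Serpina1a in WT and 0.632, 0.704 and 0.696 in CgA-KO livers, with coefficients of 0.959% and 5.77%, against 26.1% and 35.8% for its CPM. For Serpina1e the ratio was 1.07, 1.52 and 1.47 in WT and 0.0505, 0.0582 and 0.0435 in CgA-KO livers. Serpina1e in WT replicate 1 was thus low also relative to Serpina1a. Neighbours that share no word with Serpina1a were mixed. In Serpina10 the ratio varied more than its CPM (33.4% against 9.17% in WT, 42.7% against 28.1% in CgA-KO). In Serpina6 it varied less (18.9% against 36.5% in WT, 29.7% against 54.0% in CgA-KO). For Serpina12 it varied less in WT only (21.9% against 43.7%), and for Serpina11 in CgA-KO only (21.8% against 39.0%). The part of read sharing in the steadiness of these ratios was not tested.

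**Figure D4:**
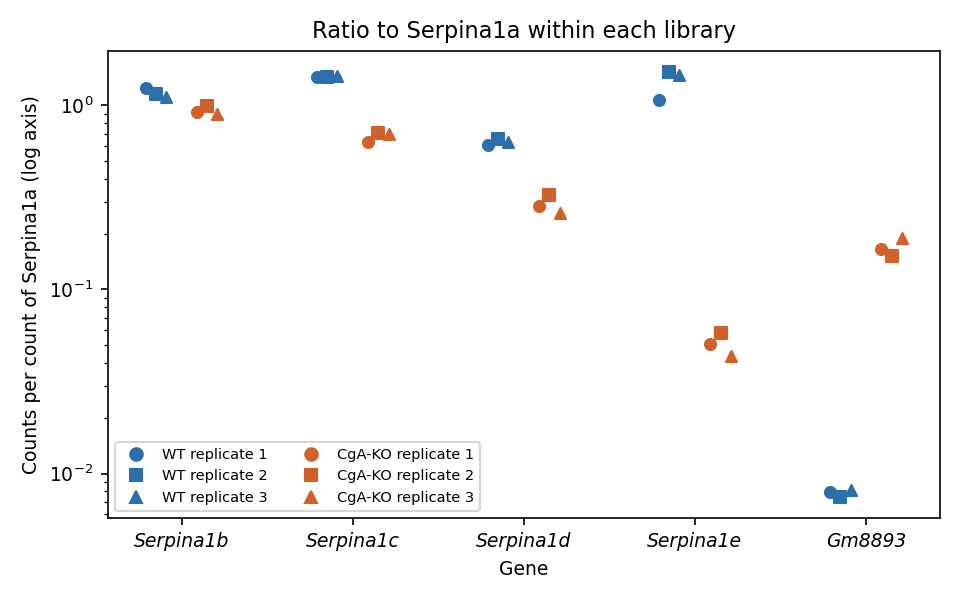
Counts of Serpina1b, Serpina1c, Serpina1d, Serpina1e and Gm8893 per count of Serpina1a in the same library, on a log axis, with 1 point per liver (blue WT, orange CgA-KO, marker shape for the replicate number). The points of a genotype lie close together, and the genotypes are farthest apart in Serpina1e (1.07 to 1.52 against 0.0435 to 0.0582) and Gm8893 (0.00749 to 0.00809 against 0.152 to 0.191).

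How much the 2 extreme genes depend on the split of reads was checked by adding Gm8893 to 1 paralog at a time, a step chosen after the data were seen. Serpina1e and Gm8893 together were at 5492 ± 2248 CPM in WT livers and 758 ± 209 in those of CgA-KO mice, a log2 ratio of -2.86 (SE 0.404) in place of -4.92. The pair was thus at 0.138 of its WT level in CgA-KO livers. Serpina1a and Gm8893 together were at 3956 ± 1048 and 4040 ± 1227 CPM, a log2 ratio of 0.03 (SE 0.334). Gm8893 is small beside Serpina1a, so this sum differed from Serpina1a alone (-0.18) by less than 1 SE and says nothing of a move of counts between them. For Serpina1b, Serpina1c and Serpina1d the pairs had log2 ratios of -0.25, -0.95 and -0.66. In TMM-normalized CPM, neither Serpina1a nor Serpina1b had a higher mean in CgA-KO than in WT livers. With library size alone, the log2 ratio of Serpina1a was 0.13. Their shares of the sum of the 5 paralogs were higher in CgA-KO livers, at 33.9% against 17.9% for Serpina1a and 31.7% against 21.0% for Serpina1b. Whether counts moved between the paralogs was not tested further.

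Serpina12, whose transcript shares no 31-base word with another gene of the annotation, was lower in CgA-KO livers by about as much as Serpina1e. It had 51.6, 106 and 53.5 CPM in WT livers, against 0.975, 1.05 and 4.21 CPM in those of CgA-KO mice. All CgA-KO livers were far below WT, and CgA-KO replicate 3 was the highest of its genotype. The counts were 576, 2485 and 1262 in WT against 21, 33 and 94 in CgA-KO, all over the floor of 3. The means were 70.3 ± 30.7 and 2.08 ± 1.85 CPM, or 0.0296 of the WT level, with a log2 ratio of -5.10 (SE 0.597). It was -6.07 without CgA-KO replicate 3 and between -5.27 and -4.68 without any other single library. Its transcript has 100% of its words to itself, so no read shared with the Serpina1 paralogs could be counted here on the annotation used.

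The remaining 3 neighbours differed less. Serpina10 was at 260, 249 and 217 CPM in WT livers, against 104, 132 and 182 CPM in those of CgA-KO mice, without overlap. Its log2 ratio was -0.79 (SE 0.246), and of the edgeR fits only that without CgA-KO replicate 3, the highest of its genotype, called it, as did DESeq2 with all 6 libraries (-0.81). Serpina6 was at 81.0, 174 and 162 CPM in WT livers, against 79.0, 142 and 47.3 CPM in those of CgA-KO mice, with WT replicate 1 inside the CgA-KO range. Its log2 ratio was -0.64 (SE 0.416). Serpina11, between Serpina1e and Serpina12 on the chromosome, was at 43.3, 54.7 and 57.6 CPM in WT livers, against 51.7, 117 and 83.5 CPM in those of CgA-KO mice. It was the only protein-coding gene of the 10 with a higher mean in CgA-KO (log2 ratio 0.70, SE 0.290), and the genotypes overlapped.

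**Figure D5:**
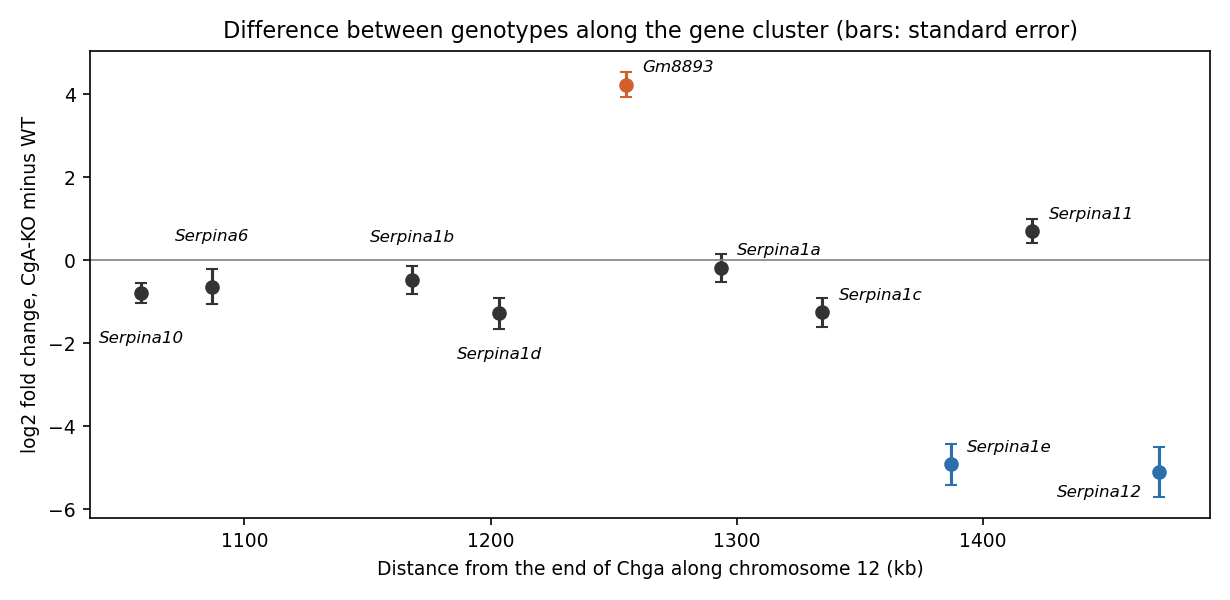
Log2 fold change (CgA-KO minus WT, bars give the SE) of the 10 genes against the distance in kb of the middle of each transcript from the end of Chga. Orange marks Gm8893, called higher, blue marks Serpina1e and Serpina12, called lower, and dark grey the 7 genes not called. Neighbours differ in direction: Serpina11, at 0.70, lies between Serpina1e (-4.92) and Serpina12 (-5.10), and Gm8893 (4.24) between Serpina1d and Serpina1a.

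The genes with the most similar course over the 6 libraries were taken by Pearson's r of log2 CPM, which in this design is set mostly by the genotype. For Serpina1e they were Lefty1, Slc25a10 and Ahsa2 (each with r = 0.995). For Serpina12 they were Pdxk (0.997), Coq10b (0.995) and Ptprf (0.994). For Gm8893 they were Ptpn9 (0.997), Abi1 (0.995) and Pdp1 (0.995). None of them was another of the 10 genes.

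Genes outside the 10 were tested on lists of related function, with adjusted p-values over all genes. Where no tool is named, rose and fell refer to edgeR's calls. Of 15 other Serpina genes of the chromosome 12 cluster, 6 were tested, and edgeR called 4 higher and 0 lower in CgA-KO livers. DESeq2, run on all genes with at least 1 count in total, called 4 higher and 2 lower. Its 2 lower calls were Serpina3k and Serpina9, which was not among the 6 tested by edgeR. Limma-voom called 4 higher and 1 lower (Serpina3k). Serpina3c rose from 4.98 ± 0.586 to 60.9 ± 25.4 CPM (adjusted p = 0.00242 in edgeR) and Serpina3g from 6.06 ± 2.96 to 31.6 ± 8.53 CPM (adjusted p = 0.00587 in edgeR), Serpina3f also rose (log2 ratio 2.22, adjusted p = 0.00882 in edgeR), and Serpina3m did by less (1.02, adjusted p = 0.0360 in edgeR), a call lost when WT replicate 2 or 3 or CgA-KO replicate 2 or 3 was left out. Serpina3k, the most abundant of them, was at 6035 ± 1046 and 2566 ± 1039 CPM (log2 ratio -1.23, adjusted p = 0.0567 in edgeR, 0.00156 in DESeq2 and 0.0417 in limma-voom), and Serpina3n was at 335 ± 57.2 and 328 ± 105 CPM. The Serpina3 genes are close paralogs of each other, so reads could have been split among them too. Of 24 serpins outside that cluster, 15 were tested. DESeq2 called 4 higher (Serpinb1a, Serpinb6a, Serpinb6b and Serpinb9) and 1 lower (Serpina7), and limma-voom and edgeR called 1 higher. The edgeR call was Serpinb6a, an inhibitor inside cells, which rose from 15.4 ± 4.51 to 47.7 ± 14.9 CPM (adjusted p = 0.0126 in edgeR), not called without WT replicate 3. The abundant plasma serpins Serpinc1 (antithrombin) and Serping1 (C1 inhibitor) had log2 ratios of -0.24 and 0.02 (adjusted p = 0.638 and 0.973 in edgeR). The list medians were 1.62 for the cluster and 0.02 for the other serpins, against -0.01 over all genes.

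Markers of Kupffer cells, the macrophages of liver, and of neutrophil precursors were also followed, since both kinds of cell can be in the sample. Of 10 Kupffer cell markers 8 rose and 0 fell, and their summed level was 128 to 282 CPM in WT and 1327 to 1772 CPM in CgA-KO livers. Of 12 neutrophil precursor markers, 6 were tested and 4 rose (Chil3, S100a8, S100a9 and Lcn2). All of these calls but that of Lcn2 were lost when any WT library was left out. The summed level of the 12 was 16.0 to 22.5 CPM in WT and 70.4 to 556 CPM in CgA-KO livers. Lcn2 alone was at 41.0, 126 and 125 CPM in CgA-KO replicates 1, 2 and 3. Ngp and Prtn3, also tested, were not called by edgeR. In WT libraries Mpo, Ctsg and Ms4a3 had 0 counts, and Elane, Ngp, Camp and Ltf had at most 6. Prtn3 had 21, 69 and 30 counts in WT replicates 1, 2 and 3, and Lcn2 had 116, 226 and 315. CgA-KO replicate 2 had the highest summed level, and Mpo had 0, 2107 and 15 counts in CgA-KO replicates 1, 2 and 3. Ltf had 5, 1221 and 24 counts there and Ms4a3 had 0, 85 and 0, so these markers were high in CgA-KO replicate 2 only. In limma-voom 1 of the neutrophil precursor markers rose. The part of these cells in the levels of Serpina3c, Serpina3g, Serpina3f, Serpina3m and Serpinb6a was not tested.

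Of 8 target proteases and cofactors, 4 were tested and 0 were called by edgeR, DESeq2 or limma-voom, while 1 (Prtn3) had an unadjusted p-value below 0.05 in edgeR. Elane, the neutrophil elastase that alpha-1 antitrypsin blocks, had 1, 3 and 0 counts in WT and 3, 588 and 16 counts in CgA-KO livers, and did not pass the filter. Ctsg, another neutrophil protease, had 0 counts in WT and 0, 215 and 2 counts in CgA-KO livers. Prtn3 had 23, 598 and 85 counts in CgA-KO livers and 21, 69 and 30 in WT (log2 ratio 1.97, adjusted p = 0.170 in edgeR). All 3 were highest in CgA-KO replicate 2. They are also on the list of neutrophil precursor markers, whose summed level was highest there, so this is no separate observation. F10 and Proz, the factor that Serpina10 inhibits and its cofactor, had log2 ratios of -0.08 and -0.43 (adjusted p = 0.898 and 0.266 in edgeR).

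Among 10 transcription factors known to act on alpha-1 antitrypsin genes, edgeR and limma-voom each called 2 lower and 0 higher. DESeq2 called 4 lower, Cebpa and Onecut1 in addition to Foxa1 and Foxa3. Foxa1 fell from 24.2 ± 5.34 to 10.3 ± 0.968 CPM (log2 ratio -1.23, adjusted p = 0.0104 in edgeR), a call lost without WT replicate 3 and without CgA-KO replicate 1. Foxa3 fell from 43.7 ± 6.02 to 26.5 ± 2.12 CPM (-0.72, adjusted p = 0.0289 in edgeR), a call that 5 of the 6 fits with a library left out did not make. Both calls were also lost with library size alone. Hnf4a was at 505 ± 119 and 508 ± 15.8 CPM (log2 ratio 0.01, adjusted p = 0.990 in edgeR), and Cebpa had a log2 ratio of -0.88 (adjusted p = 0.0889 in edgeR and 0.0231 in DESeq2). The list median was -0.12.

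Of the genes that fold and export alpha-1 antitrypsin, edgeR called 0. Of 12 genes for its export from the ER, all were tested and edgeR called 0, with 3 at an unadjusted p-value below 0.05. DESeq2 called 2 and limma-voom 1, all lower, and the list had a median log2 ratio of -0.30. Tmed2, a cargo carrier, was at 309 ± 69.0 and 217 ± 56.3 CPM (adjusted p = 0.245 in edgeR), and Mcfd2, part of the cargo receptor for secreted proteins, at 176 ± 23.9 and 149 ± 18.5 CPM (adjusted p = 0.496 in edgeR). Of 19 genes for folding and disposal in the ER, 18 were tested and edgeR called 0, with 4 at an unadjusted p-value below 0.05 and a median of -0.28. DESeq2 called 3, all lower, and limma-voom 0. The chaperone Hsp90b1 was at 524 ± 43.0 and 342 ± 33.0 CPM (log2 ratio -0.62, adjusted p = 0.0880 in edgeR) and Calr at 459 ± 17.5 and 324 ± 83.2 CPM (-0.50, adjusted p = 0.210 in edgeR). Lrp1, a receptor which takes up serpin-protease complexes, had a log2 ratio of -0.29 (adjusted p = 0.424 in edgeR). Of 8 genes of the glucocorticoid receptor and steroid handling, which touch the hormone that the Serpina6 product carries, 7 were tested and 0 were called by edgeR, DESeq2 or limma-voom, with 2 at an unadjusted p-value below 0.05 in edgeR and a median of -0.22. Hsd11b1, which regenerates active glucocorticoid, was at 486 ± 127 and 373 ± 102 CPM (adjusted p = 0.417 in edgeR).

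Genes known to be higher in male than in female mouse liver were lower in CgA-KO livers in 5 cases. Of 15 such genes 5 fell and 0 rose, with a median log2 ratio of -0.68. Slco1a1, a transporter, fell from 206 ± 70.7 to 18.6 ± 10.5 CPM (log2 ratio -3.47, adjusted p = 0.00583 in edgeR). Nudt7 (-2.37, adjusted p = 0.0189 in edgeR) and Gstp1 (-1.69, adjusted p = 0.0290 in edgeR) fell too, and each lost its call when any of WT replicates 2 and 3 and CgA-KO replicates 1 and 2 was left out. Of 16 genes known to be higher in female liver, 10 were tested, 5 rose and 1 fell, with a median of 2.87. DESeq2 called 7 higher and 1 lower, and limma-voom 2 higher and 1 lower. The DESeq2 calls include Cyp2b13 and Sult3a1, which were not among the 10 tested by edgeR. Cux2, a repressor of male-biased genes, rose from 1.83 ± 0.711 to 22.2 ± 21.2 CPM (log2 ratio 3.57, adjusted p = 0.0164 in edgeR), with the call lost in limma-voom and when any WT library was left out. All animals were male according to the paper's methods, and the sample labels give no sex. The part of whatever moves these genes in the levels of Serpina1e and Serpina12 was not tested.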

How the data were processed

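Liver RNA of 3 WT and 3 CgA-KO male mice was sequenced, 1 library per mouse. The authors deposited counts, whole numbers per gene symbol without scaling, made by Salmon 1.4.0 from paired reads of 100 bases against the GRCm38 transcriptome. The step from transcripts to genes is not given in the sources used here. Repeated symbols, none among the genes described, were kept as separate rows. Libraries of a genotype differed by more than sampling noise (29.9 to 190 for chi-square over its degrees of freedom), so each is 1 replicate. Nothing says more of the animals' litters or batches.

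edgeR 4.0.16 (R 4.3.3) was run with filterByExpr (minimum count 10), TMM, robust quasi-likelihood fits and Benjamini-Hochberg adjustment over the 13867 genes tested, with calls at 0.05. A standard error is the log2 fold change over the square root of its F statistic. The fit was tested on simulated data. Alternatives were DESeq2 1.42.0, limma-voom (limma 3.58.1), other scalings and filters, a stricter threshold, a replicate block, each library left out, and paralog rows summed. DESeq2 was run on the genes with at least 1 count in total. Words, identities and motifs were computed in Python 3.11.15 with Biopython 1.88 from GENCODE M21 transcripts and RefSeq promoters, using for each paralog the transcript of the common coding length with the shortest span. Figures were drawn with matplotlib 3.10.9.

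Genes named outside the 10 are, per list, up to 4 called genes with the largest fold change and at least 5 CPM, and up to 2 others with the highest level, of which those bearing on the 10 are given. A result that the rule covers is not reported here. Elane, Ctsg, Mpo, Ms4a3, Camp, Ltf and the genes that DESeq2 alone called were named after their values were seen. The 10 genes and all lists were chosen with earlier results of these data known.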

Additional observations from a re-analysis of the deposited data

How the results depend on the processing

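With DESeq2, 2592 genes were called, 958 of them lower, and 5 of the 10 genes were called lower in CgA-KO, as were 20 genes of the related lists. DESeq2 was given 19693 genes, those with at least 1 count in total, so tool and filter changed together. Limma-voom called 4 of the 10 lower. With library size alone, which moved the median over all genes to 0.26 on the log2 scale, 200 genes were called lower and 1293 higher, against 533 and 1193 with TMM, and 5 genes of the related lists were lower. An adjusted p-value under 0.01 left 360 genes (95 lower, 265 higher), and 3 lower and 13 higher genes of the related lists. Deviations from the group means had correlations of 0.20, 0.01 and -0.07 between same-numbered libraries. Between libraries of unlike number they ran from -0.26 to 0.23. With 3 livers per genotype, this cannot tell whether the numbers pair the livers. The replicate block called 4 of the 10 genes lower, Serpina1c and Serpina1d in addition, and 1498 genes in all. With 1 library left out, the genes called ran from 394 to 2126 (lower 118 to 563, higher 276 to 1563), the genes of the 10 called lower from 2 to 4, and the genes of the related lists from 3 to 11 lower and from 12 to 26 higher. All 6 libraries gave 1726 calls. Leaving out WT replicate 3 gave 394 and WT replicate 2 gave 841, while 744 were left when CgA-KO replicate 1 was dropped and 976 when CgA-KO replicate 2 was. The genes of the 10 called higher stayed at 1. Serpina1e, Serpina12 and Gm8893 kept their direction and call in all of these fits. Of 152 single values under alternatives, 148 shifted by less than the SD between replicates, whether or not a call or a sign was kept. Leaving out 1 of 3 livers can hardly shift a group mean by that much, so this tally says little of robustness. The calls of Serpina1c, Serpina1d and Serpina10 were the same in 8, 7 and 11 of 13 alternatives. The 4 values that moved further were Serpina12 without CgA-KO replicate 3 (-6.07), Serpina1d and Serpina1e each summed with Gm8893 (-0.66 and -2.86, sums chosen after seeing the data), and the WT share of Serpina1d per transcript length (11.02%). The cause of these shifts was not tested. With 3 livers per genotype, standard errors of 0.246 to 0.416 limit what can be seen in the other 7 genes.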
